A study of Mus musculus with 12 samples.

Results

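The genes described here encode the subunits of the mitochondrial respiratory chain and ATP synthase, measured in single mouse fetal liver blood progenitors. Members were chosen by gene symbol: nuclear genes of the Nduf, Sdh, Uqcr, Cox4 to Cox8 and Atp5 families, without the Ndufaf assembly factors, and the protein-coding rows of the mitochondrial chromosome (chrM, written here as mtNd, mtCo, mtAtp and mtCytb). Of the 19463 genes in the count tables, 95 matched, 82 nuclear and 13 on chrM. A gene had to reach 50 unique molecular identifiers (UMIs, which count captured RNA molecules) over all wells used, and 94 members did, among 12480 genes in all. The member nearest above that minimum was Cox7a1, the heart and muscle form of a complex IV subunit, with 85 UMIs, and Ndufs5, a complex I subunit, fell below it with 1 UMI.

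The samples were 12 plates of LSK cells (lineage-negative, Sca1-positive, Kit-positive, the fraction that holds blood stem cells and multipotent progenitors) from C57BL/6J fetuses at embryonic day 18.5. The 4 genotypes were wild type (WT, 3 plates), Rev1-/- (Rev1 knockout, 3 plates), PcnaK164R/K164R (Pcna K164R, 2 plates) and PcnaK164R/K164R;Rev1-/- (double mutant, 4 plates). Rev1 is a translesion DNA polymerase and scaffold, and the Pcna lysine that the K164R change replaces is the one whose ubiquitination recruits such polymerases to damaged DNA. The study concerned blood stem and progenitor cells that lack these 2 routes of DNA damage tolerance. All groups shared strain, age and sort gate, and the labels used here do not say which plates came from separate fetuses, so p-values measure the spread between plates, which may be technical.

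The chain passes electrons from NADH through complex I, or from succinate through complex II, to ubiquinone, and then through complex III, cytochrome c and complex IV to oxygen. Complexes I, III and IV pump protons, and complex V, the ATP synthase, uses the gradient to make ATP. Complex II is encoded wholly in the nucleus, whereas the other complexes combine nuclear subunits with subunits made inside the mitochondrion from its own genome, so the 2 genomes have to be expressed together. Resting blood stem cells of adults are known for relying little on respiration, whereas the cells here were fetal. The fetal liver is where red cell precursors, which need mitochondria for heme synthesis, expand. Klf1 is the transcription factor that drives the erythroid programme, and a well with at least 1 Klf1 UMI is called Klf1-positive here.

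After wells under 1000 UMIs were set aside, 3088 of 4608 wells remained, with 212938 to 11617420 UMIs a plate and 535 Klf1-positive wells. The targeted transcript was checked first. WT plates held 11.0 to 20.5 Rev1 counts per 1000000 UMIs, Pcna K164R plates 7.86 and 11.3, Rev1 knockout plates 1.35 to 6.00, and double mutant replicates 1 to 3 held 1.29, 2.48 and 4.70. The library labelled double mutant replicate 4 held 13.7, from 33 UMIs, inside the WT range and against its label, so most genotype results below are given by plate or also without it. Double mutant replicate 3 stood apart as well: it kept 82 wells with a median of 1730 UMIs, and Kcnq1ot1 and Gm17821 took 16.8% and 12.1% of its UMIs, against at most 0.507% and 0.273% on any other plate. Double mutant replicates 1, 2 and 4 had deeper wells than WT (medians of 30735, 34853 and 22571 UMIs against 14960, 7537 and 12280) and more Klf1-positive wells (33.6%, 42.2% and 46.7% against 19.7%, 3.28% and 7.02%).

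The upstream stretches of 5 members are shown first because these are genes on which the Klf1 comparison turns: Uqcr11 and Cox6a1, which were much higher in Klf1-positive wells, and Atp5g1, Atp5g2 and Atp5g3, 3 genes for the same ATP synthase subunit that did not move alike. They were picked after their values were seen. Each line gives the 250 bases before a RefSeq start site in GRCm38.p6, 5′ to 3′ on the minus strand, on which all of these genes lie. For Atp5g1 and Atp5g3 that start site lies inside the gene, whose 5′ end is at 96075694 and 73912464. Capitals mark letters matching a motif on either strand: NRF1 (CGCATGCG), ETS/GABP (CCGGAAGT) and ERR (TCAAGGTCA), named for factors known to act on nuclear respiratory genes. The NRF1 match of Uqcr11 runs past the start site, and only its first letters lie in the stretch shown.

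Uqcr11 (chr10:80406822-80407071): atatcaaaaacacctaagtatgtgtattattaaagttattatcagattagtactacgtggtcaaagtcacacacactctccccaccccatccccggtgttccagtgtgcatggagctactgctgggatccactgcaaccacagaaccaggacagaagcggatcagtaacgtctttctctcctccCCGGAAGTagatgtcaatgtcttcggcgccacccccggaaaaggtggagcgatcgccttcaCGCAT
Cox6a1 (chr5:115348959-115349208): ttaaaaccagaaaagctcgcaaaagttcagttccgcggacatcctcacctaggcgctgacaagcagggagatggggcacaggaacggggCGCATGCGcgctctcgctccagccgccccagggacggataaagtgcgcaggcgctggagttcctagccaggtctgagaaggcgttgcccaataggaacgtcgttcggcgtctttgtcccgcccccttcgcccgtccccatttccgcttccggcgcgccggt
Atp5g1 (chr11:96075632-96075881): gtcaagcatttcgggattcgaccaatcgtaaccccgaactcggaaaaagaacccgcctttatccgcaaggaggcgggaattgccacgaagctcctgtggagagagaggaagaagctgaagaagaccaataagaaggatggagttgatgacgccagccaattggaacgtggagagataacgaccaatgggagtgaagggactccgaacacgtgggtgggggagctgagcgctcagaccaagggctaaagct
Atp5g2 (chr15:102671048-102671297): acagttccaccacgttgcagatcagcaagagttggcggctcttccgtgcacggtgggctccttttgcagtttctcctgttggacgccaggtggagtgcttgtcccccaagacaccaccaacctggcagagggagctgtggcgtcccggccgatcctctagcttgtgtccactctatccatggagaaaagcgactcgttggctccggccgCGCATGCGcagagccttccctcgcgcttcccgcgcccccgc
Atp5g3 (chr2:73911327-73911576): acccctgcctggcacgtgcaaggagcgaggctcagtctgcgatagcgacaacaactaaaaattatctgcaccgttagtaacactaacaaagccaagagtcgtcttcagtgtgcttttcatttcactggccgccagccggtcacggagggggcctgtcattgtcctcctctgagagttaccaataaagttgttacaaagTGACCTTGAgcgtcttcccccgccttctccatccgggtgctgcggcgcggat

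Atp5g1 held no match in this window, Atp5g2 held NRF1 at -41, Cox6a1 held NRF1 at -161, Atp5g3 held ERR on the opposite strand at -52, and Uqcr11 held ETS/GABP at -66 and NRF1 at -5. Positions count from the start site to the first base of the match. Windows of 300 bases, which also include the 50 bases after the start, were found for 68 members (74 windows). NRF1 was in 12.2% of them against 1.87% of all 32851 windows, ETS/GABP in 6.76% against 3.89%, ERR in 2.70% against 0.423%, and YY1 (AAGATGGCG) in 12.2% against 1.40%. Any of these 4 occurred in 31.1% of member windows, covering 22 members, and in 7.21% of all windows. The CACC box CCACACCC, the kind of element that Klf1 binds, was in 2.70% of member windows and 3.56% of all. The motifs do not overlap in letters, and a match describes the sequence only.

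The first question was how much of the captured RNA came from each genome. In WT plates the 81 nuclear members took 1.65% ± 0.0632 (SD, n = 3) of UMIs and the 13 chrM members took 6.11% ± 0.876 (SD, n = 3). Within the nuclear RNA of WT, complex V took the most, 0.606% ± 0.0253 (SD, n = 3) of all UMIs, followed by complex I with 0.508% ± 0.0345, complex IV with 0.333% ± 0.0158, complex III with 0.150% ± 0.00809 and complex II with 0.0537% ± 0.00665. For chrM the order differed: complex IV held 2.42% ± 0.161 (SD, n = 3), complex I held 1.75% ± 0.203, complex V held 1.28% ± 0.566 and complex III, which has the single gene mtCytb, held 0.653% ± 0.124. The spread of the complex V value came from mtAtp6, the proton channel subunit, at 8274, 16749.6 and 9199 counts per 1000000 UMIs (CPM, with library sizes adjusted by TMM, edgeR's scaling) in WT replicates 1 to 3.

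Because 1 UMI stands for 1 captured 3′ end, levels need no division by gene length, although capture may differ between genes. By mean level over the 12 plates, the highest chrM members were mtAtp6 (11450 CPM), mtCo1 (10759 CPM) and mtCo2 (8677 CPM), the latter 2 being the core subunits of cytochrome c oxidase. The highest nuclear members were Atp5b (986 CPM) and Atp5a1 (779 CPM), the catalytic and companion subunits of the ATP synthase head, and Cox8a (604 CPM), a small complex IV subunit. In complex I they were Ndufa4 (345 CPM), a subunit named for complex I and since placed in complex IV, and Ndufc2 (258 CPM). In complex III they were Uqcrh (268 CPM), the hinge protein, and Uqcrc2 (240 CPM), a core protein.

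The nuclear share was then compared by genotype. WT plates held 1.59%, 1.65% and 1.71% of UMIs in nuclear members, Rev1 knockout plates 1.66%, 1.74% and 1.86%, and Pcna K164R plates 1.81% and 1.95%. Double mutant replicates 1 to 4 held 2.32%, 2.07%, 0.445% and 2.16%. Double mutant replicates 1, 2 and 4 therefore lay above every plate of the other genotypes, and the thin replicate 3 lay far below all of them. Over all 4 plates the double mutant differed from WT by 0.0980 percentage points (exact permutation test, two-sided, p = 1; the smallest possible p was 0.0286). Without replicate 3 the double mutant mean was 2.18% ± 0.123 (SD, n = 3), 0.533 points above WT (exact permutation test, p = 0.1, the smallest that 3 against 3 plates allow). Without the library labelled replicate 4, which keeps replicate 3, the mean differed from WT by -0.0386 points (exact permutation test, p = 1). With both left out, a choice made after the data were seen, replicates 1 and 2 averaged 2.20%, 0.545 points above WT (exact permutation test, p = 0.1, the smallest that 2 against 3 plates allow).

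The means of the single mutants lay between WT and the 3 deeper double mutant plates. Pcna K164R exceeded WT by 0.231 points (exact permutation test, p = 0.1, the smallest possible), with no overlap of 2 plates against 3. Rev1 knockout exceeded WT by 0.102 points (exact permutation test, p = 0.2), and the groups overlapped. Within sort session 1, WT was at 1.59%, Pcna K164R at 1.88% and the double mutant at 2.20% (1, 2 and 2 plates). Within session 3, WT was at 1.68%, Rev1 knockout at 1.80% and the library labelled double mutant replicate 4 at 2.16% (2, 2 and 1 plates). Session 2 held only Rev1 knockout replicate 1 at 1.66% and double mutant replicate 3. The double mutant was thus 0.608 points above WT in session 1 and 0.476 points in session 3, while replicate 3 had no WT plate of its session to be set against. With plates permuted within those 2 sessions, a comparison added after the data were seen, the mean difference was 0.542 points (exact permutation test, p = 0.111, the smallest possible). Flow cell cannot be told apart from this comparison either, because no flow cell named in the labels carried both WT and double mutant plates.

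The chrM share showed no such order. WT plates held 5.64%, 7.12% and 5.56%, Rev1 knockout plates 7.17%, 5.25% and 6.13%, Pcna K164R plates 7.90% and 7.18%, and double mutant plates 6.86%, 6.13%, 5.73% and 6.81%. All groups but Pcna K164R overlapped one another, and the 2 Pcna K164R plates lay above all other plates. The double mutant differed from WT by 0.276 points (exact permutation test, p = 0.657) and Pcna K164R by 1.44 points (exact permutation test, p = 0.2). The log2 ratio of chrM to nuclear UMIs was 1.88 ± 0.21 (SD, n = 3) in WT and 3.69 in double mutant replicate 3, against 1.56, 1.57 and 1.66 in the other double mutant plates.

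**Figure D1:**
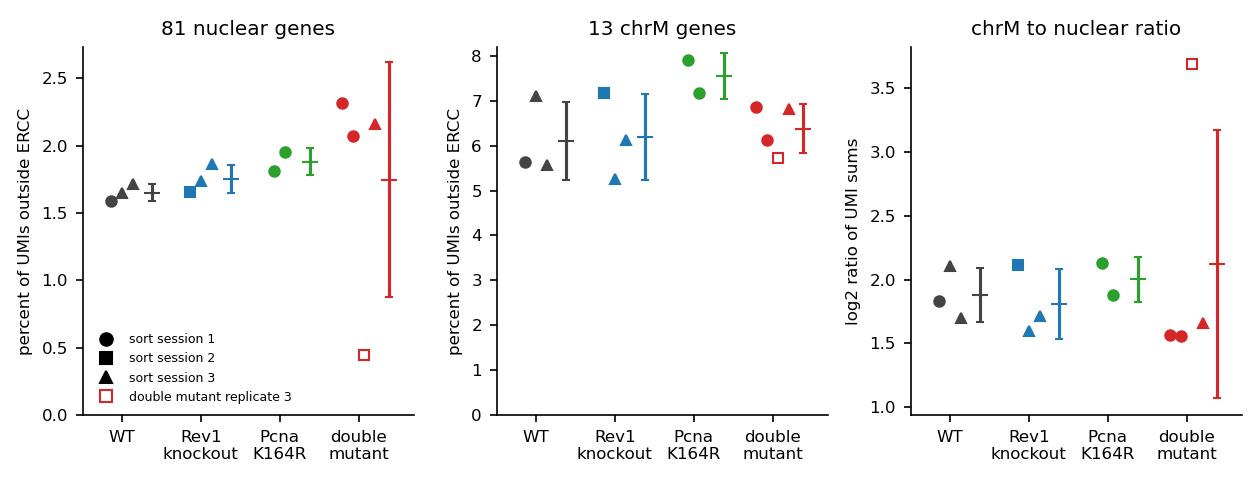
Share of UMIs in nuclear members (percent), share in chrM members (percent) and log2 ratio of chrM to nuclear UMIs, 1 point a plate by genotype; marker shape gives the sort session, the open square is double mutant replicate 3, and bars are mean ± SD. Double mutant replicates 1, 2 and 4 hold 2.07% to 2.32% nuclear UMIs, above every plate of the other genotypes, while replicate 3 holds 0.445%.

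By complex, the 3 deeper double mutant plates were above every WT plate for nuclear complexes I, III, IV and V. Complex III stood highest, with 0.218% of UMIs without replicate 3 against 0.150% in WT, a ratio of 1.45. The ratios were 1.38 for complex IV, 1.34 for complex V, 1.23 for complex I and 1.24 for complex II, in which the plates overlapped. All complex sums follow gene symbols, so Ndufa4 is counted in complex I and not in complex IV. It averaged 436 CPM in WT and measured 327, 237 and 454 CPM on double mutant replicates 1, 2 and 4. Ratios with Ndufa4 moved to complex IV were not computed, so the order of complexes I, IV and V may depend on it. With the library labelled replicate 4 left out too, the ratios were 1.47 for complex III, 1.42 for complex IV, 1.36 for complex V, 1.21 for complex I and 1.17 for complex II, again with overlap only in complex II. With all 4 plates, none of the 9 complex sums passed an exact permutation test after Benjamini-Hochberg adjustment. With 4 against 3 plates, the smallest possible p passes that adjustment only if most of the 9 sums reach it together. The test therefore could not call a difference in only a few complexes. The smallest unadjusted p was 0.0857, for the chrM genes of complex I, at 2.35% against 1.75% (adjusted p = 0.771), and replicate 3 was the highest plate there.

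Gene by gene, edgeR's quasi-likelihood test with the sort session as a covariate called 0 of 94 members between double mutant and WT at an adjusted p under 0.05. Among all genes tested, 4.21% were called in that comparison (514 of 12221). At an unadjusted p under 0.05 there were 22 members, 23.4% of them against 22.7% of all genes, so the members did not exceed the background by that count. DESeq2 called 21 members, all higher, while it called 8.02% of all genes higher and 16.5% in either direction. The median log2 fold change was 0.41 over nuclear members, 75 of 81 of them above 0, and 0.22 over chrM members, against -0.04 over all genes. In the 3 deeper double mutant plates, 59 of 81 nuclear members and 2 of 13 chrM members exceeded every WT plate, and none lay below every WT plate. Among all genes, 18.9% exceeded every WT plate in the same way (2310 of 12221), and 2250 of 12221 lay below every WT plate. These counts were added after the data were seen and leave out replicate 3. On replicates 1 and 2 alone, 65 of 81 nuclear members and 5 of 13 chrM members exceeded every WT plate, against 26.5% of all genes.

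Uqcrq, a small complex III subunit beside cytochrome b, came closest to a call. It measured 182, 160 and 174 CPM in WT and 367, 296, 139 and 307 CPM in the double mutant. Replicates 1, 2 and 4 were above every WT plate and replicate 3 was below them, and the log2 difference was 0.80 ± 0.21 (SE; edgeR adjusted p = 0.0532). Cox6b2, the testis form of a complex IV subunit, measured 59.0, 30.9 and 39.9 CPM in WT and 122, 101, 8.68 and 69.4 CPM in the double mutant (log2 0.85 ± 0.25, SE; edgeR adjusted p = 0.0704). Uqcr11, another small complex III subunit, measured 102, 119 and 125 CPM in WT and 159, 135, 86.8 and 234 CPM in the double mutant (log2 0.66 ± 0.20, SE; edgeR adjusted p = 0.0724). In all 3 genes the same 3 double mutant plates were above WT and replicate 3 was below it.

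On the lower side no member had an adjusted p near the threshold with all plates. Cox6a2, the heart and muscle form of a complex IV subunit, was at 4.22, 3.12 and 1.45 CPM in WT and at 3.90 CPM in double mutant replicate 1, with no UMI in the other 3 double mutant plates (edgeR adjusted p = 0.425). Without double mutant replicate 1 it was called lower (edgeR adjusted p = 0.0406), with no UMI left in the double mutant, so its fitted fold is no bound. Ndufa4 measured 296, 511 and 500 CPM in WT and 327, 237, 60.8 and 454 CPM in the double mutant, so the groups overlapped (log2 -0.36 ± 0.36, SE). Cox7a2l, which helps join complexes III and IV into supercomplexes, had a log2 difference of -0.31 ± 0.24 (SE).

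Replicate 3 decided this count. Without it, 37 members were called, 36 of them higher, while 8.51% of all genes were called higher (1069 of 12556). The higher members were 15 nuclear and 1 chrM gene of complex I, 1 of complex II, 6 of 8 in nuclear complex III, 7 of 15 in complex IV and 6 of 17 in complex V. The 1 lower member was mtNd6, at a log2 difference of -0.76 (edgeR adjusted p = 0.0469). Atp5g1, 1 of 3 genes for the ring subunit c of ATP synthase, led the list: 280, 242 and 254 CPM in WT against 575, 489 and 484 CPM in double mutant replicates 1, 2 and 4, and 86.8 CPM in replicate 3. Its log2 difference without replicate 3 was 0.96 ± 0.13 (SE; edgeR adjusted p = 0.00389). Others higher without that plate were Cox6b2 (log2 0.95), Uqcrq (0.88), Ndufb10, an accessory complex I subunit (0.79), Uqcrc2 (0.75) and Atp5g3 (0.71).

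The library labelled replicate 4 mattered in the other direction. Without it, 0 members and 12 genes in all were called, and the median over nuclear members was 0.18. With replicates 3 and 4 both left out, 2 members and 0.569% of all genes were called: Uqcrfs1, the iron-sulfur protein of complex III, was higher (log2 0.96 ± 0.17, SE; edgeR adjusted p = 0.0498) and mtNd6 was lower (-1.33 ± 0.23, SE; edgeR adjusted p = 0.0449). The median over nuclear members was then 0.52. Leaving out Rev1 knockout replicate 1 gave 38 called members. That plate is the only other one of sort session 2, so the session term then takes up replicate 3 whole.

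**Figure D2:**
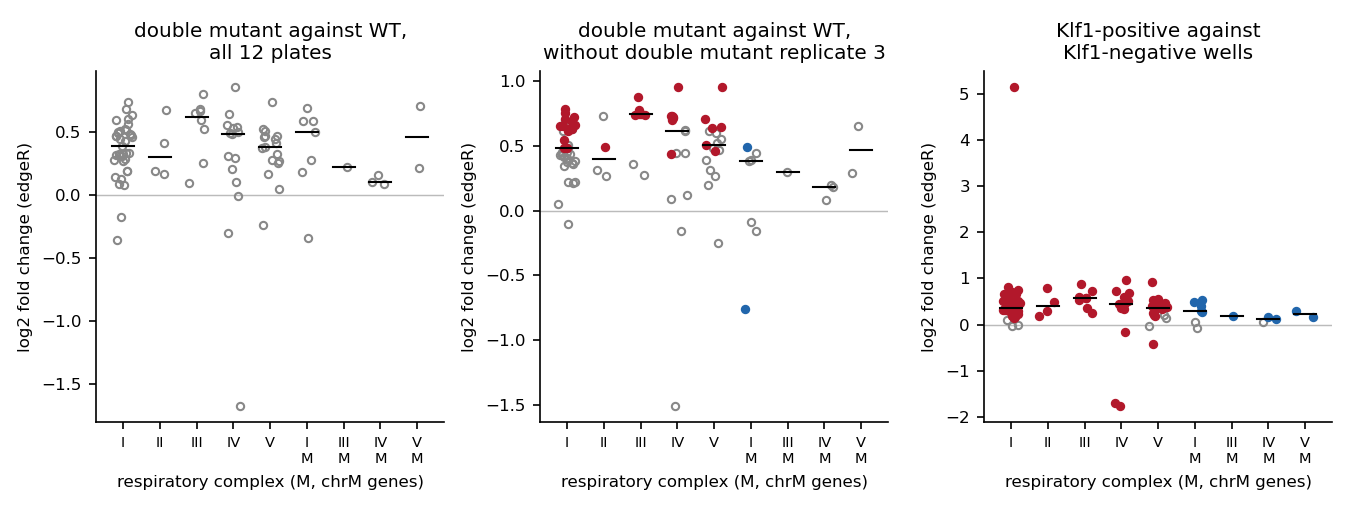
Log2 fold change of each member by complex, for double mutant against WT with all plates, the same without double mutant replicate 3, and Klf1-positive against Klf1-negative wells; columns marked M hold chrM genes, filled points passed an adjusted p under 0.05, open points did not, and lines are medians. No member is filled in the first panel, 37 are in the second and 84 in the third.

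Complex II has no mitochondrial gene. With all plates, its 4 members had a median log2 difference of 0.30 between double mutant and WT, and all 4 were higher. Sdha, the flavoprotein that oxidises succinate, measured 197, 215 and 188 CPM in WT and 262, 245, 156 and 223 CPM in the double mutant. Sdhb, the iron-sulfur subunit, measured 114, 102 and 125 CPM in WT and 162, 184, 104 and 144 CPM in the double mutant. Sdhc, a membrane anchor, averaged 89.5 CPM in WT and 96.7 CPM in the double mutant. Sdhd, the other anchor, varied between plates of 1 genotype as much as between genotypes, from 35.6 to 154 CPM in WT and from 63.0 to 255 CPM in the double mutant. No Sdh gene passed the test in any genotype comparison with all plates. Without replicate 3, Sdhb was called higher in the double mutant than in WT (log2 0.49 ± 0.15, SE, edgeR adjusted p = 0.0490).

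Neither single mutant had a called member. Against WT, Rev1 knockout and Pcna K164R each had 0 of 94 members and 0% of all genes called by edgeR, and DESeq2 called 2 and 0, against 1.33% and 0.0258% of all genes. At an unadjusted p under 0.05 there were 14 members in Rev1 knockout, 14.9% against 9.13% of all genes, and 1 in Pcna K164R, 1.06% against 1.96%. The nuclear median log2 difference was 0.36 in Rev1 knockout and 0.12 in Pcna K164R, and the chrM median was -0.12 and 0.37. These 2 comparisons and that of the double mutant share the WT plates. Sort session 2 holds only Rev1 knockout replicate 1 and double mutant replicate 3, so through the session term replicate 3 enters the Rev1 knockout estimates. As plain plate shares the order of the single mutants was the reverse. Nuclear members averaged 1.75% of UMIs in Rev1 knockout and 1.88% in Pcna K164R, against 1.65% in WT. In Rev1 knockout the smallest p belonged to Cox4i2, the form of complex IV subunit 4 known from lung and low oxygen, at 8.96, 10.1 and 9.07 CPM against 7.38, 3.12 and 3.27 CPM in WT (log2 1.81 ± 0.40, SE; edgeR adjusted p = 0.287). Every Rev1 knockout plate was above every WT plate for that gene. In Pcna K164R it belonged to mtNd3, a complex I subunit, at 1682 and 2583 CPM against 1362, 605 and 628 CPM (log2 0.88 ± 0.34, SE; edgeR adjusted p = 1).

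Between the mutants, 1 member was called. mtAtp8, a small ATP synthase subunit whose gene overlaps mtAtp6, measured 166, 188, 1415 and 1269 CPM in the double mutant and 153, 109 and 152 CPM in Rev1 knockout (log2 2.81 ± 0.63, SE; edgeR adjusted p = 0.0478). Replicates 3 and 4 set this difference, while replicates 1 and 2 were near the Rev1 knockout values. In that comparison 1.75% of all genes were called, above the 1.06% of members. DESeq2 called 4 members, 4.26% against 9.66% of all genes. The mtAtp8 call was lost when any 1 of 10 plates was left out (edgeR adjusted p from 0.0514 to 0.359, the highest without the library labelled replicate 4). It was lost as well without the session term (0.116), with the deposited read counts (0.179) and with wells limited to 20% chrM (0.0587). Double mutant against Pcna K164R gave 0 of 94 members by edgeR and by DESeq2, and 0.0409% of all genes by edgeR. At an unadjusted p under 0.05 there were 6 members, 6.38% against 9.61% of all genes.

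Several chrM genes varied widely between plates of the same genotype. mtNd6, the complex I subunit encoded on the strand opposite to the other protein genes, measured 94.8 to 161 CPM on the 5 plates of sort session 3 and 356 CPM on double mutant replicate 3. On the other 6 plates it measured 14.6 to 38.2 CPM, so apart from replicate 3 the step between low and high plates followed the sort session. Genotypes also differed within sessions. In session 1, WT was at 38.2 CPM, Pcna K164R at 24.6 and 35.8 CPM and the double mutant at 15.5 and 14.6 CPM. In session 3, WT was at 154 and 161 CPM, Rev1 knockout at 108 and 94.8 CPM and the library labelled double mutant replicate 4 at 135 CPM. Double mutant replicate 3 was also far above its group for mtNd2 (18497 CPM against 3574 to 5979 CPM), mtNd5 (9496 against 1372 to 2079 CPM) and mtNd4l (3394 against 277 to 345 CPM). These are 3 more complex I subunits. The core genes were steadier: mtCo1 ranged from 8614 to 15496 CPM, mtCo2 from 7120 to 10884 CPM, mtCo3, the third core subunit of complex IV, from 4831 to 6806 CPM, and mtCytb from 4294 to 7631 CPM. mtNd5 and mtNd6 overlap at their ends on opposite strands. On the same strand, mtAtp8 overlaps mtAtp6 and mtNd4l overlaps mtNd4. Reads within an overlap could have been counted for either gene.

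**Figure D3:**
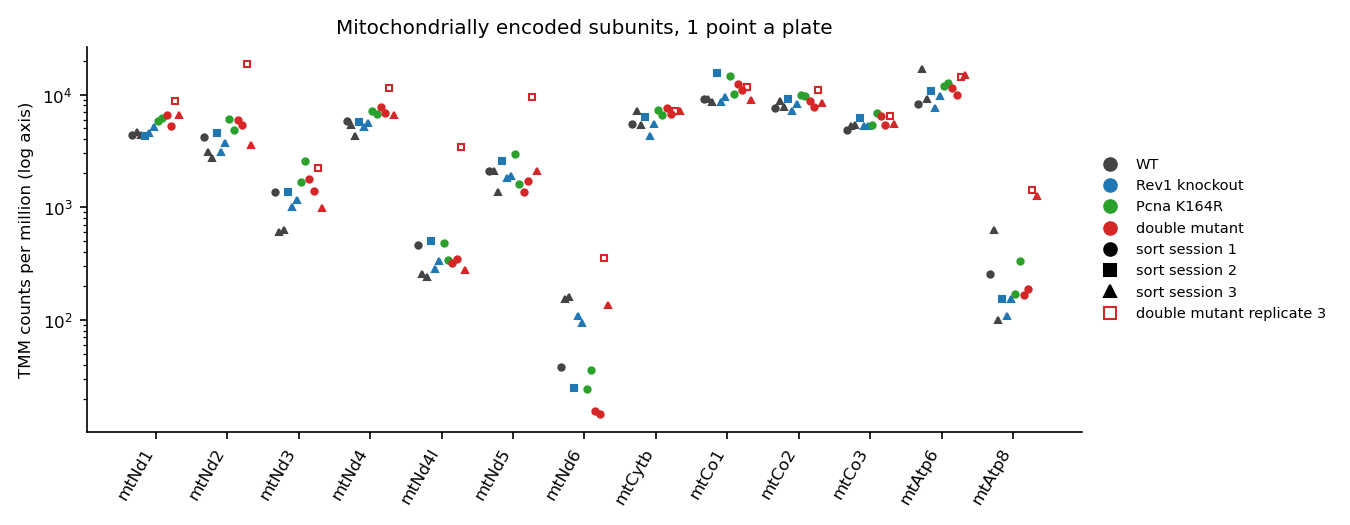
Level of each chrM member in CPM (log axis), 1 point a plate, coloured by genotype. mtNd6 falls into a lower set of 14.6 to 38.2 CPM and a higher set from 94.8 CPM, and mtAtp8 is highest on double mutant replicates 3 and 4, at 1415 and 1269 CPM.

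Since double mutant plates held more Klf1-positive wells, the genotypes were also compared in Klf1-negative wells. edgeR called 0 of 94 members there and 0.645% of all genes (77 of 11943), with 16 members at an unadjusted p under 0.05, 17.0% against 14.3% of all genes. DESeq2 called 8 members, all higher, and 3.08% of all genes higher. The nuclear median log2 difference was 0.36, and 74 of 81 nuclear members were above 0. Cox6b2 (log2 1.03 ± 0.27, SE; edgeR adjusted p = 0.106), Uqcrq (0.73 ± 0.23) and Ndufb2, an accessory complex I subunit (0.69 ± 0.23), had the smallest p-values. Without replicate 3, 10 members were called, all higher, against 2.01% of all genes called higher. With replicates 3 and 4 both left out, Uqcrfs1, Atp5g1, Cox6b2 and Uqcrc2 were called, all higher, against 0.382% of all genes called higher.

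Depth was then matched by keeping wells of 10000 to 30000 UMIs, a range chosen after the data were seen. WT plates held 1.43%, 1.73% and 1.67% in nuclear members and double mutant replicates 1, 2 and 4 held 2.26%, 1.92% and 2.01%. In Klf1-negative wells of that range the values were 1.38%, 1.68% and 1.64% against 2.24%, 1.89% and 1.94%. The 3 plates stayed above every WT plate in both sets. Replicate 3 had only 3 wells there.

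Marker genes differed on the same plates. Summed over 18 erythroid markers, WT plates held 825 to 1278 counts per 1000000 UMIs and double mutant replicates 1, 2 and 4 held 1795, 2337 and 3103. Over 10 stem cell markers the values were 1492 to 1715 against 697, 724 and 636, over 6 lymphoid markers 683 to 814 against 309, 243 and 165, and over 5 genes of the LSK sort 850 to 1167 against 723, 740 and 521. Over 6 megakaryocyte markers the values were 76.5 to 83.1 against 60.4, 39.2 and 44.9. The granulocyte-monocyte, mast, macrophage and hepatocyte sums overlapped between these plates. The part of cell makeup in the nuclear share was not tested beyond the Klf1 split and the depth range.

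The clearest pattern was between Klf1 classes of the same plate. On the 11 plates with at least 5 wells of each class, Klf1-positive wells held more nuclear member RNA than Klf1-negative wells in all 11. The share in Klf1-positive wells ran from 1.95% to 2.43%, and in Klf1-negative wells from 1.42% to 2.24%. The mean difference was 0.392 percentage points (exact sign-flip permutation test, p = 0.000977, the smallest possible). For chrM the difference was 0.444 points, higher in 9 of 11 plates, with WT replicates 2 and 3 as the exceptions (exact permutation test, p = 0.0215). The log2 ratio of chrM to nuclear UMIs was lower in Klf1-positive wells on every plate, by 0.20 on average (exact permutation test, p = 0.000977).

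**Figure D4:**
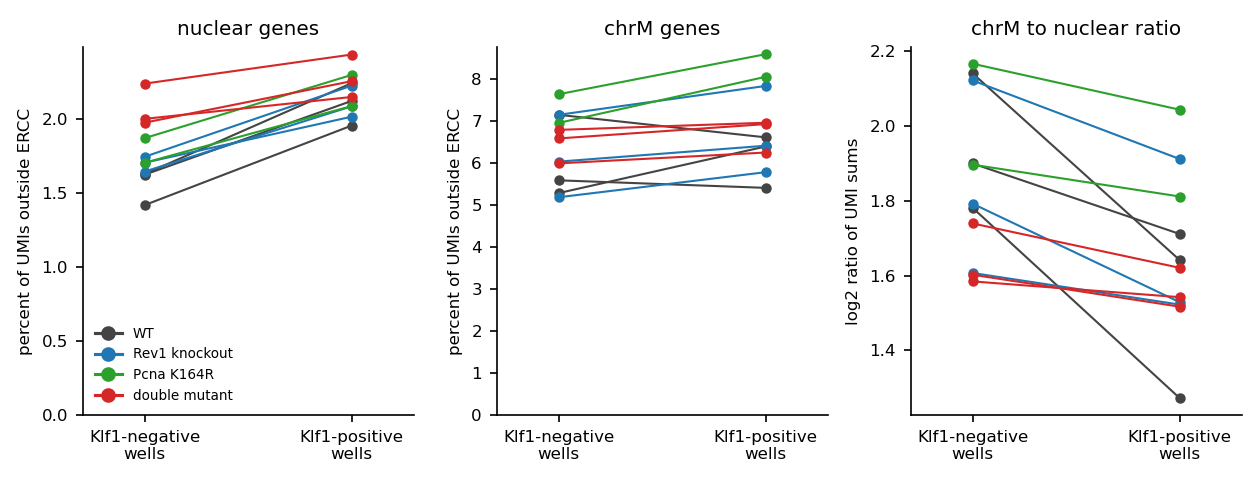
Share of UMIs (percent) in nuclear members and in chrM members, and their log2 ratio, in Klf1-negative and Klf1-positive wells; each line joins the 2 classes of 1 plate, coloured by genotype. The nuclear share is higher in Klf1-positive wells on 11 of 11 plates and the chrM share on 9 of 11.

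Cell type markers parted between the classes too. Summed over 18 erythroid markers, Klf1-positive wells had a median over plates of 3771 counts per 1000000 UMIs (2053 to 6115) and Klf1-negative wells 512 (273 to 764), with Klf1-positive wells higher on 11 of 11 plates. That sum includes Klf1 itself, which Klf1-negative wells lack by definition, so part of the erythroid difference was fixed in advance. Stem cell markers stood at 413 against 1438, lymphoid markers at 152 against 767, granulocyte-monocyte markers at 284 against 1168 and the LSK sort genes at 488 against 1019, and each was lower in Klf1-positive wells on all 11 plates. Macrophage markers, of which 1 of 7 had no UMI anywhere, stood at 560 (116 to 1052) against 74.5 (8.84 to 181), higher in Klf1-positive wells on 10 of 11 plates. Mast cell markers stood at 30.6 against 205, megakaryocyte markers at 58.0 against 87.4 and hepatocyte markers at 6.92 against 8.84, higher in Klf1-positive wells on 1, 2 and 4 plates. The part of these differences in the member values that follow was not tested.

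All 5 nuclear complexes were higher in Klf1-positive wells on each of the 11 plates. The mean ratio of Klf1-positive to Klf1-negative share was 1.35 for complex III, 1.25 for complex IV, 1.22 for complex II, 1.20 for complex V and 1.20 for complex I (exact permutation test, adjusted p = 0.00146 for each over 9 sums). On chrM only the complex I sum passed, with a ratio of 1.20 (exact permutation test, adjusted p = 0.00146). The chrM ratios were 1.04 for complex III, 0.992 for complex IV and 1.03 for complex V, and none of these 3 passed.

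Of 93 members tested by edgeR with the plate as a block, 84 were called, 80 higher and 4 lower. Among all 11632 genes, 30.4% were called higher and 32.6% lower, so most genes outside the chain moved as well. The nuclear median log2 difference was 0.39 and the chrM median 0.18, against -0.04 over all genes. DESeq2's scaling placed the median over all genes at 0.16 and the nuclear median at 0.32, and called 74 members higher and 6 lower. By complex, 34 of 37 nuclear members of complex I rose, 4 of 4 of complex II, 8 of 8 of complex III, 11 of 14 of complex IV and 13 of 17 of complex V.

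The complex III and IV genes included several of the smallest p-values. Uqcr11 had a median of 210 CPM (range 140 to 309) in Klf1-positive wells and 115 CPM (70.8 to 136) in Klf1-negative wells, so the classes did not overlap on any pair of plates (log2 0.89 ± 0.08, SE; edgeR adjusted p = 1.44e-10). Cox6a1, the widely expressed form of subunit 6a, had 629 CPM (474 to 829) against 343 CPM (265 to 527), a log2 difference of 0.73 ± 0.06 (SE). Cox5b, a zinc-binding subunit, had 466 CPM (380 to 625) against 312 CPM (223 to 387), with a log2 difference of 0.68 ± 0.06 (SE). Each of the 3 was higher in Klf1-positive wells on 11 of 11 plates.

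In complexes I and V the accessory subunit Ndufb9 had 222 CPM (188 to 288) against 142 CPM (103 to 156), log2 0.74 ± 0.06 (SE). Ndufa5 and Ndufb10, 2 more accessory subunits, rose by 0.82 ± 0.07 and 0.71 ± 0.06 (SE) on the log2 scale. Atp5b, the catalytic β subunit, had 1312 CPM (1196 to 1714) against 916 CPM (710 to 1289), log2 0.56 ± 0.04 (SE). In complex II, Sdhd had the largest difference, log2 0.80, and its plate-to-plate range was wide in both classes (41.8 to 317 and 30.1 to 181 CPM).

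Isoforms of the same subunit parted. Ndufa4l2, a homologue of Ndufa4 known as a target of the hypoxia factor Hif1, had a median of 58.1 CPM (17.1 to 133) in Klf1-positive wells and 1.82 CPM (0 to 4.69) in Klf1-negative wells. It was higher on 11 of 11 plates (log2 5.15 ± 0.21, SE; edgeR adjusted p = 2.89e-17). With 1414 UMIs in all, it was found in 10.9% of wells. Ndufa4 itself had 361 CPM against 343 CPM, higher on 4 of 11 plates, and was not called.

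The 3 genes of ATP synthase subunit c encode the same mature protein with different import sequences. Atp5g1 had 538 CPM (357 to 784) against 264 CPM (214 to 477), log2 0.91 ± 0.06 (SE; edgeR adjusted p = 1.24e-12). Atp5g3 had 986 CPM (763 to 1315) against 625 CPM (519 to 1028), log2 0.48. Atp5g2 had 544 CPM (360 to 819) against 560 CPM (358 to 855), log2 -0.04, and was higher on only 3 of 11 plates. The first 2 passed the test and Atp5g2 did not, and the difference between the genes was not itself tested. Their upstream stretches, shown above, differed in the motifs found, but those of Atp5g1 and Atp5g3 precede a start site inside the gene.

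Among the complex IV isoforms, the widely expressed Cox4i1 rose by 0.50 on the log2 scale (507 against 353 CPM), while Cox4i2 fell by 1.71 (3.26 against 11.5 CPM). Cox6a1 rose, while Cox6a2, with 182 UMIs in all, fell by 1.76 and had a median of 0 CPM in Klf1-positive wells. Cox6b2 rose by 0.97 (98.1 against 44.1 CPM, 11 of 11 plates) and Cox6b1 was higher on 10 of 11 plates (344 against 246 CPM). Cox7a2 had 228 CPM against 183 CPM, higher on 11 of 11 plates, and Cox7a2l fell by 0.16 (286 against 309 CPM). Cox8a had 811 CPM against 587 CPM, and Cox8b and Cox8c had no row in the tables.

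The last of the 4 lower members was Atp5sl, whose product is now known as a complex I assembly protein rather than an ATP synthase subunit, with 27.2 CPM against 38.9 CPM and lower on 11 of 11 plates (log2 -0.42 ± 0.11, SE). In wells of 10000 to 30000 UMIs Atp5sl lost its call at a log2 difference of -0.37 (edgeR adjusted p = 0.122). Cox7a2l lost its call there at -0.0664 (edgeR adjusted p = 0.608), and also with the deposited read counts (0.111) and without WT replicate 1, Pcna K164R replicate 2 or Rev1 knockout replicate 3 (0.0711 to 0.133). The 6 nuclear members without a call were Ndufa4, Ndufb11, Ndufs4, Atp5e, Atp5g2 and Atp5s.

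**Figure D5:**
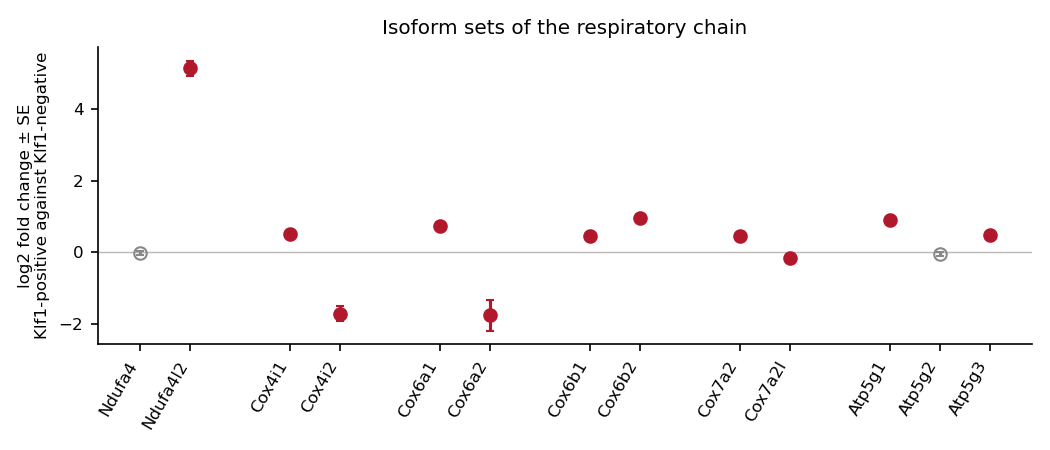
Log2 fold change ± SE in Klf1-positive against Klf1-negative wells for isoforms and relatives of the same subunit; filled points passed an adjusted p under 0.05 and open points did not. Ndufa4l2 stands at 5.15, Atp5g1 and Atp5g3 at 0.91 and 0.48 with Atp5g2 at -0.04, and Cox4i2 and Cox6a2 lie below 0 while Cox4i1 and Cox6a1 lie above it.

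On chrM, 10 of 13 genes were called higher in Klf1-positive wells under TMM scaling. As plain shares of UMIs, only the chrM sum of complex I passed. The complex IV sum had a ratio of 0.992 and was higher on 6 of 11 plates, although 2 of its 3 genes were called higher. The complex V sum had a ratio of 1.03 and was higher on 9 of 11 plates. Complex I subunits led: mtNd1, a ubiquinone-site subunit, had 6968 CPM (5805 to 9628) against 4818 CPM (3639 to 6184), log2 0.54 ± 0.05 (SE), and mtNd2 had 6169 CPM against 3573 CPM, log2 0.49. Both were higher on 11 of 11 plates, as were mtNd4 (7605 against 5945 CPM) and mtCytb (7394 against 6560 CPM). For mtCytb that count holds under TMM scaling, whereas its plain share of UMIs, the complex III sum above, was higher on 7 of 11 plates. The ATP synthase genes mtAtp6 and mtAtp8 were higher on 9 and 10 plates. mtCo1 (10174 against 10098 CPM), mtNd5 and mtNd6 were not called.

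Depth moved with the Klf1 class: on every plate the median Klf1-positive well was deeper, for example 24939 against 13585 UMIs in WT replicate 1 and 36483 against 27950 UMIs in double mutant replicate 1. Within wells of 10000 to 30000 UMIs the nuclear difference was 0.273 points, higher on 10 of 10 plates. There 54 of 92 members were called, 53 of them higher, against 16.0% of all genes called higher. The log2 ratio then differed by -0.06 (exact permutation test, p = 0.455). Each well was also thinned to 1000 UMIs and classed again by the Klf1 UMIs that remained. The nuclear share was then 0.341 points higher on 7 of 7 plates, but the chrM share was 0.191 points lower (exact permutation test, p = 0.359). In that set edgeR called 8 of 82 members, all lower, which is 9.76% against 9.80% of all genes called lower, and the nuclear median was -0.07. The higher nuclear share thus appeared in both depth settings, whereas the higher chrM share and the count of higher members did not hold after thinning.

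The Klf1 difference was smaller in double mutant plates. The log2 ratio of nuclear share between classes ran from 0.39 to 0.46 on the 3 WT plates and from 0.10 to 0.19 on double mutant replicates 1, 2 and 4, with no overlap. The mean difference was -0.30 (exact permutation test, p = 0.1, the smallest possible), and without the library labelled replicate 4 it was -0.33 (p = 0.1). Rev1 knockout and Pcna K164R averaged 0.31 and 0.29. All 5 nuclear complexes showed the same non-overlap, from -0.27 for complex I to -0.36 for complex II, whereas for the chrM share the p was 1.

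In Klf1-negative wells the nuclear share was 1.42% to 1.63% in WT and 1.97% to 2.24% on those double mutant plates, without overlap. In Klf1-positive wells it was 1.95% to 2.24% and 2.15% to 2.43%, and the plates overlapped. In edgeR's test of this difference between genotypes, added after the data were seen, 0 of 93 members and 0.086% of all genes were called. At an unadjusted p under 0.05 there were 30 members, 32.3% against 7.73% of all genes. Of 80 nuclear members 4 were above 0, with a median of -0.29 against 0.04 over all genes. Cox6b2 had the smallest p, at -0.85 (edgeR adjusted p = 0.173), and without the library labelled replicate 4, 1 member was called.

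Other mitochondrial lists were examined beside the chain, against 30.4% of all genes called higher and 32.6% called lower by Klf1 class. In Klf1-positive wells, 67 of 76 mitochondrial ribosomal protein genes rose and none fell (median log2 0.45), as did 14 of 18 genes of the citric acid cycle with 1 lower (0.37), and 10 of 18 genes of mitochondrial DNA expression and maintenance (0.27). Of 39 assembly factors tested, 18 rose and 1 fell (0.20). Of 18 electron carriers, exchangers and antioxidant genes, 14 rose and 2 fell (0.58): Prdx3 and Txnrd2, the peroxiredoxin and thioredoxin reductase of the mitochondrion, rose by 1.61 and 1.56, Atpif1, the inhibitor of ATP synthase, by 1.11, and Prdx5 fell by 0.44. Of 11 transcription regulators, 6 rose, among them Myc (0.58) and Pprc1 (0.53), and 4 fell, among them Ppargc1a (-1.41), a coactivator of mitochondrial genes, and Gabpb1 (-0.79). The share of regulators that fell was close to that of all genes.

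With all plates, where 1.80% of all genes were called higher and 4.21% in either direction, double mutant against WT gave 7 of 76 mitochondrial ribosomal protein genes called higher (median log2 0.51), 1 of 39 assembly factors, Ecsit (1.02), and Prdx3 (0.99) and Txnrd2 (1.32) among the antioxidant genes. The citric acid cycle, mitochondrial DNA and regulator lists had none called by edgeR. These lists were counted with all plates only, and not without double mutant replicate 3 or the library labelled replicate 4.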

How the data were processed

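SORT-seq, a plate method that counts mRNA 3′ ends, was applied to sorted cells. Per the labels, libraries were sequenced on a NextSeq 500, and BWA 0.7.15 and GRCm38/mm10 are named in the submitters' processing notes, with no step assigned. The authors deposited whole-number UMI counts and read counts per gene and well. They also deposited estimated counts of transcripts, which the values show to be the UMI counts corrected for collisions among 4096 barcodes. UMI counts were used, summed per plate over wells with at least 1000 UMIs outside ERCC spike-ins, and the estimated counts were rounded for the alternative fit. Members and lists were chosen with earlier results of these data known.

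Genes were tested with edgeR 4.0.16 (quasi-likelihood, TMM scaling, genotype plus sort session, filter on low counts, Benjamini-Hochberg adjusted p under 0.05), with DESeq2 1.42.0 as an alternative. Klf1 classes were compared over 11 plates with the plate as a block and the Klf1 gene removed. The scripts were tested on simulated data. Shares were compared by exact two-sided permutation over plates. Genes named with values were up to 10 of smallest p per direction where at least 3 passed, otherwise 3 per direction, the highest members of each complex, the Sdh and chrM genes and the isoform pairs. UMI collisions understate the highest chrM genes slightly: the correction of mtCo1 reached 1.09-fold. Plates of 1 genotype differed by more than counting noise (chi-square per degree of freedom at least 8.70), so none was a repeat deposit. Well barcodes are shared by design between plates. Sequences are from RefSeq, GRCm38.p6, and 92 members matched by symbol and 3 by synonym.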

Additional observations from a re-analysis of the deposited data

Results flagged for a closer look

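In each group of 4 to 10 plates, a plate stands out when its gap to the nearest other plate, divided by the range, exceeds Dixon's 95% critical value. Only the double mutant has 4 plates. Of 31 values examined there, 10 stood out, where chance alone flags about 1 in 20 groups. The values share plates and genes and are not independent.

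Double mutant replicate 3 accounted for 9 of the 10. It was low in the nuclear share (0.445% of UMIs) and in the nuclear shares of complex I (0.105%), complex III (0.0451%), complex IV (0.0742%) and complex V (0.199%). It was high in the log2 chrM to nuclear ratio (3.69), mtNd2 (18497 CPM), mtNd4l (3394 CPM) and mtNd5 (9496 CPM). Double mutant replicate 1 stood out for Cox6a2, at 3.90 CPM where the other 3 plates had no UMI.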

How the results depend on the processing

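The count of called members between double mutant and WT, 0 by edgeR, was 21 with DESeq2, 6 with no filter on low counts, 1 each without chrM genes, with the deposited transcript counts, with wells of at least 2000 UMIs and with wells of at most 20% chrM, and 2 in wells of 10000 to 30000 UMIs. It ran from 0 to 38 with 1 plate left out: 38 without Rev1 knockout replicate 1, 37 without double mutant replicate 3 and 1 without double mutant replicate 1 (Cox6a2, lower). With double mutant replicates 3 and 4 both left out it was 2, and 4 in Klf1-negative wells. In Klf1-negative wells the 0 became 8 (DESeq2), 1 (no filter, wells of 10000 to 30000 UMIs, or thinning to 5000 UMIs), and 0 to 15 with 1 plate left out. For Rev1 knockout against WT it became 2 with DESeq2 and 5 with no filter. For double mutant against Rev1 knockout the 1 call became 4 with DESeq2 or no filter, and 0 without chrM genes, without the session term, with read counts or with the chrM limit, and ran from 0 to 4 with 1 plate left out. The 84 calls by Klf1 class became 54 in wells of 10000 to 30000 UMIs, 45 after thinning to 5000 and 8 after thinning to 1000 UMIs, where 0 of the 9 complex sums passed. With 1 plate left out they ran from 75 to 86. The genotype test of the Klf1 difference gave 0 to 1.

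With 1 plate left out, the nuclear share of the double mutant minus WT ran from -0.0912 to 0.533 points (Klf1-negative wells, -0.0843 to 0.514), minus Rev1 knockout from -0.193 to 0.431, and minus Pcna K164R from -0.323 to 0.301. The chrM share of Rev1 knockout minus WT ran from -0.414 to 0.583, of the double mutant minus Rev1 knockout from -0.266 to 0.690, and minus WT in Klf1-negative wells from -0.0881 to 0.844. The log2 ratio ran from -0.28 to 0.43 for the double mutant against WT (Klf1-negative, -0.30 to 0.41), from -0.21 to 0.49 against Rev1 knockout, from -0.41 to 0.30 against Pcna K164R, and from -0.222 to 0.0458 for Rev1 knockout against WT. With replicates 3 and 4 both left out the log2 ratio against WT was -0.31 (Klf1-negative, -0.35), and compared within sort sessions -0.25 (Klf1-negative, -0.26). Direction also turned in wells of 10000 to 30000 UMIs for the nuclear share of double mutant against WT (-0.0299, Klf1-negative -0.0241) and the chrM share (-0.608, Klf1-negative -0.693, and -0.811 against Rev1 knockout). The double mutant means there include replicate 3 through 3 wells, at 0.114% nuclear and 1.57% chrM. Direction turned as well for the chrM share of Rev1 knockout against WT with read counts (-1.78), of Klf1-negative double mutant against WT after thinning to 5000 UMIs (-0.690), and for the nuclear share of double mutant against Rev1 knockout as a mean over wells (0.0286). By Klf1 class the chrM share was 0.0793 as a mean over wells, 0.466 with at least 3 Klf1 UMIs (p = 0.0547, exact permutation) and -0.191 after thinning to 1000, and the log2 ratio was -0.0552 in the depth range. For single genes, log2 differences turned for mtNd1 by Klf1 class (-0.0864) and Cox7c in Klf1-negative wells (0.17) after thinning to 1000 (0.0199 without replicates 3 and 4), for mtAtp6 in Rev1 knockout (0.20), mtNd1 in double mutant against Rev1 knockout (-0.30) and Cox6a2 in double mutant against WT (0.81, Klf1-negative 1.06) in the depth range, and for Cox4i2 in double mutant against Rev1 knockout without the session term (0.0941).

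The cause of these changes was not tested, apart from the number of plates, wells or genes each setting leaves. The depth range, leaving out replicates 3 and 4 together, the comparison within sort sessions, the Klf1 test by genotype, the count above every WT plate and the CACC box were chosen after the data were seen. No paired analysis was possible because replicate numbers follow deposit order and tie no plates together, and the sort session, which does, was used as a covariate and in the comparison within sessions. No flow cell named in the labels carried both WT and double mutant plates, so flow cell and that comparison cannot be told apart.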
